A study of Homo sapiens with 18 samples.

Results

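The mitochondrial ribosomal protein genes, those with an MRPL or MRPS symbol, were followed in SH-SY5Y cells exposed to sarin. Probe sets of the value table were taken where the array's annotation named exactly 1 gene and that symbol began with MRPL or MRPS and a number. This gave 64 probe sets for 51 genes, of 22283 probe sets and 11963 genes with a probe set of their own, and 1 probe set shared with another gene was left out. Of the 51 genes, 41 had 1 probe set and 10 had more; for these the brightest probe set, by mean log2 signal, was used. A filter on low signal left 7178 genes for testing, 47 of them mitochondrial ribosomal; MRPL19, MRPL41, MRPL52 and MRPS18C fell below it.

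SH-SY5Y is a human cell line derived from a neuroblastoma, and sarin is a nerve agent that inhibits acetylcholinesterase. Untreated cells and cells given sarin at 5 ppm were sampled at 3, 24 and 48 h, with 3 Affymetrix arrays in each of the 6 groups, 18 in all. All arrays come from 1 line, and the labels put 6 flasks behind each group but do not tie a flask to an array. The p-values therefore reflect only how much these arrays vary, and that variation may be technical. Of the noradrenergic markers of this line, 10 of the 11 with a probe set were above background on all 9 untreated arrays, and TH was above it on 0 of them.

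Mitochondria keep their own ribosome, which makes the handful of membrane proteins encoded by mitochondrial DNA, all of them subunits of the respiratory chain and ATP synthase. Its ribosomal RNAs come from mitochondrial DNA, while its proteins are encoded in the nucleus, made in the cytosol and imported. Some of these proteins have a counterpart in the bacterial ribosome and others were added during mitochondrial evolution, and neurons, which depend on respiration, are among the cells hurt when mitochondrial translation fails. Of the 51 genes, 33 encode proteins of the large subunit and 18 of the small one, with MRPS30 and MRPS18A counted in the large subunit, where their products sit despite their names. A bacterial counterpart exists for 33 of the products and not for the other 18.

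Genes of this family lie on 20 chromosomes. Windows of 300 bases around the annotated start were found in RefSeq, build GRCh38.p14, for 45 of the 51 genes. Binding motifs were searched on both strands. The ETS motif bound by GABP, CCGGAAG, was in 18 of the 45 windows (40%) against 10.7% of 27305 promoters of all genes. The YY1 motif, AAGATGG, was in 15 (33.3%) against 6.06%. The NRF1 motif, GCGCANGCGC, was in 3 (6.67%) against 6.28%, and TATAAA was in 1 (2.22%) against 12%. At least 1 of the first 3 motifs was in 29 windows (64.4%) against 20.5% of all promoters. Promoter windows are printed for genes that the results below turn on, 5′ to 3′ on the gene's own strand, with motif matches in capitals. CTTCCGG and CCATCTT are the ETS and YY1 motifs read on the opposite strand. The first 3 belong to genes past the threshold at 24 h and the other 3 to genes with large falls at 48 h.
MRPL9, chr1:151763447-151763746, minus strand: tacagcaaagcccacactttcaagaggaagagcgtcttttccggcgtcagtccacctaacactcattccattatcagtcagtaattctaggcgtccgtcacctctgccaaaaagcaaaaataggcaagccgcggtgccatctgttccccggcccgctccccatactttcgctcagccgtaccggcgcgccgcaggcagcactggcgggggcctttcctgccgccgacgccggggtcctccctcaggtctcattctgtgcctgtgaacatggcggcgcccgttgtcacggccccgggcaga
MRPL20, chr1:1407244-1407543, minus strand: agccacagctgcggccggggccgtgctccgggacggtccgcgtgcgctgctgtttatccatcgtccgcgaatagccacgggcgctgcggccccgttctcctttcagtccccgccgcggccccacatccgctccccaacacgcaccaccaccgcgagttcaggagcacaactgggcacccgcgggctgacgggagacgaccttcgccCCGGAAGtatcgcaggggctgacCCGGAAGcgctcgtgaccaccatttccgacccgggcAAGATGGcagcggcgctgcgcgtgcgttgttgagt
MRPL57, chr13:21176408-21176707, plus strand: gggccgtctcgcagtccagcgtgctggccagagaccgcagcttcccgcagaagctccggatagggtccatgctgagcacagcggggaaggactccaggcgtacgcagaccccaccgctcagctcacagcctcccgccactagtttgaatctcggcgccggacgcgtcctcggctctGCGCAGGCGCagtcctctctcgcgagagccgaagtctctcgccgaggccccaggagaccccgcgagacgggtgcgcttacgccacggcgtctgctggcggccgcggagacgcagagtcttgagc
MRPL42, chr12:93467264-93467563, plus strand: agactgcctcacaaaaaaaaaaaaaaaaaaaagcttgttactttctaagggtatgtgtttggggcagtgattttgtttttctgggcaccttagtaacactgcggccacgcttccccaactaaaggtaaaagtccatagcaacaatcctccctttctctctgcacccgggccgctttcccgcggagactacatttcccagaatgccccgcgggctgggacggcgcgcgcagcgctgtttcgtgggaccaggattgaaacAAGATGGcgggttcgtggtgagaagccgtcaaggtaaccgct
MRPS12, chr19:38930694-38930993, plus strand: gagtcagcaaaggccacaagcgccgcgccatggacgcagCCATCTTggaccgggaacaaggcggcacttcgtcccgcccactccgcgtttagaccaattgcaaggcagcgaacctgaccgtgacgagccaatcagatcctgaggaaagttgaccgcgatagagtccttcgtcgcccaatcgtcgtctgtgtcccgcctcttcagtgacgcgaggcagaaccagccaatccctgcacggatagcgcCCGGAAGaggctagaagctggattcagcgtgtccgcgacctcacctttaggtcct
MRPS34, chr16:1773085-1773384, minus strand: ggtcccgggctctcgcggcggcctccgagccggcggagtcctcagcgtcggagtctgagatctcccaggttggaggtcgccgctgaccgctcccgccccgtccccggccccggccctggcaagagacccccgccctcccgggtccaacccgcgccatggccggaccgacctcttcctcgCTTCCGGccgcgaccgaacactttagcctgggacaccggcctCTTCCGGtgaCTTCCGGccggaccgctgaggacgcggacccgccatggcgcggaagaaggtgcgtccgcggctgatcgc
The matches are letters in a window and were not tested as binding sites. MRPL20 held 2 ETS matches and 1 YY1 match, MRPL57 held 1 NRF1 match, and MRPL9 held none of the 4 motifs. MRPL42 held 1 YY1 match, MRPS12 held 1 ETS match and 1 YY1 match, and MRPS34 held 3 ETS matches. The windows of 10 of the genes overlapped that of a neighbour on the opposite strand, and MRPL46 and MRPS11 overlapped each other by 181 bases.

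All values are MAS5 signal, a linear intensity per probe set, and changes are differences of log2(signal + 16) ± SE, sarin minus untreated cells of the same time. A gene passes the threshold when its adjusted p in limma is under 0.05 over the 7178 genes tested. Signals of different probe sets depend on their probes and are not compared between genes.

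The sarin arrays of the last time point, 48 h, stood apart from the other 15. Their ratio of 3′ to 5′ GAPDH signal was 2.15 to 2.3 against 0.696 to 1.17 on the other 15 arrays, that of ACTB 3.68 to 4.67 against 0.79 to 1.64, and their background level 410.7 to 443.2 against 97.0 to 182.9. They correlated with one another at 0.862 to 0.869 and with the other arrays at 0.665 to 0.758, while the other 15 correlated at 0.909 to 0.965. The trimmed mean was 800.1 to 800.3 on every array, and no 2 arrays were identical.

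Relative to the mean of the 9 untreated arrays, the median of the 47 tested genes lay at 0.05 to 0.16 (log2) on the 3 sarin arrays at 24 h and at -0.11 to -0.04 on the untreated arrays of that time. On the sarin arrays at 48 h it lay at -1.15 to -1.11, while the median of all tested genes on those arrays was -0.05 to -0.03. The sarin arrays at 24 h were thus the higher of their pair of groups without overlap, and those at 48 h were the lowest of the 18. At 3 h the sarin arrays spanned 0.05 to 0.13 and the untreated arrays -0.05 to 0.12, which overlap.

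**Figure D1:**
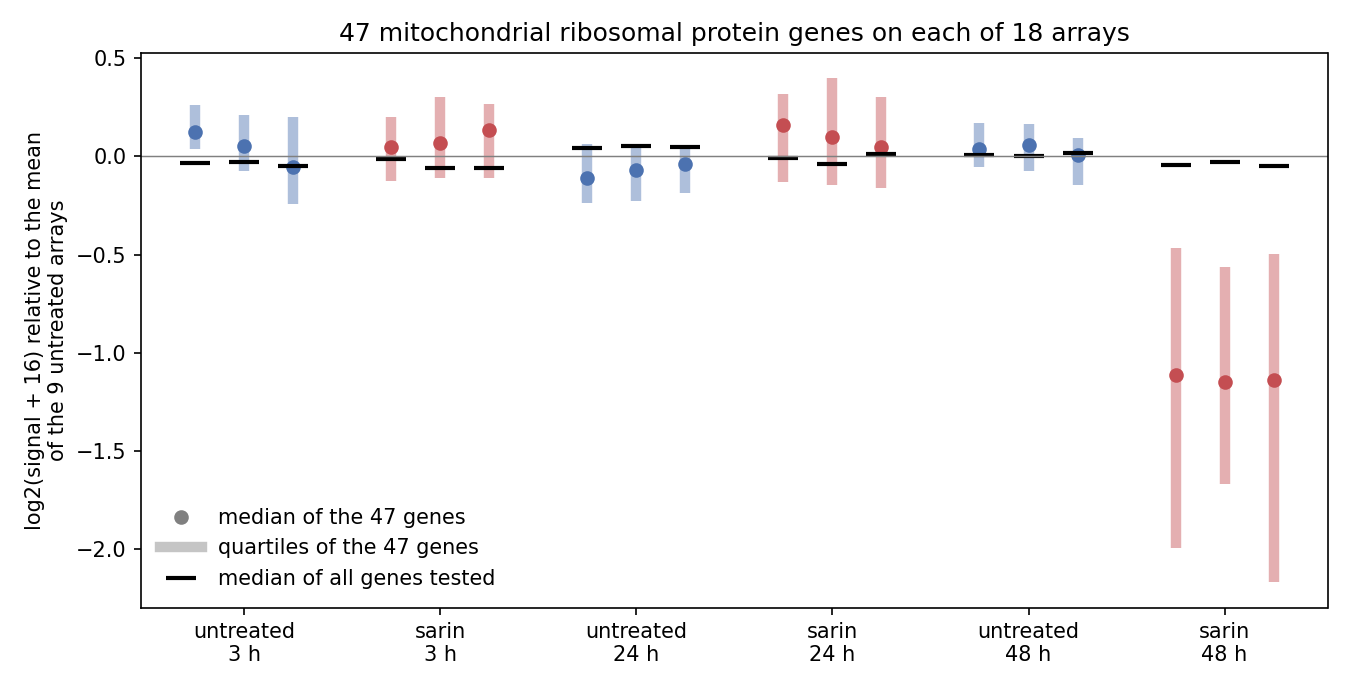
Level of the 47 tested mitochondrial ribosomal protein genes on each of the 18 arrays, as log2(signal + 16) relative to each gene's mean over the 9 untreated arrays (y axis), by group (x axis). Points are medians, shaded bars run from the lower to the upper quartile of the genes and black dashes the median of all 7178 genes; the sarin arrays at 48 h sit at -1.15 to -1.11, the sarin arrays at 24 h at 0.05 to 0.16.

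At 3 h, 0 of the 47 genes passed the threshold in limma, as did 0% of all 7178 genes. At an unadjusted p under 0.05 there were 2, 1 in each direction, and 747 of all genes. The median change was -0.03, against -0.01 for all genes, with 20 genes above 0 and 27 below.

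The smallest p on the lower side at 3 h was that of MRPL12, a protein of the stalk that recruits translation factors. Its signal was 4072, 2649.6 and 4830.5 in untreated and 2296, 2835 and 2645 in sarin-exposed cells, a difference of -0.53 ± 0.23 with an adjusted p of 0.42 in limma. The 2 groups overlapped, since the second untreated array lay among the sarin arrays. On the higher side the smallest p was that of MRPS31, a small-subunit protein without a bacterial counterpart, at 0.46 ± 0.21 with an adjusted p of 0.46 in limma. MRPS2, a counterpart of a bacterial small-subunit protein, read 1009, 1116 and 565.7 in untreated and 1103, 1390.5 and 1339.6 in sarin-exposed cells, a difference of 0.55 ± 0.27. Its adjusted p was 0.492 in limma, and the highest untreated array overlapped the lowest sarin array. Next by p came MRPS11 at 0.37 ± 0.21 on the higher side, and MRPS30 at -0.33 ± 0.24 and MRPL2 at -0.22 ± 0.20 on the lower, with overlapping arrays and adjusted p-values of 0.583, 0.688 and 0.74 in limma.

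At 24 h, 6 of the 47 genes (12.8%) rose, MRPS31, MRPL57, MRPL9, MRPL20, MRPL3 and MRPL15, by 1.49 to 1.96-fold, and 0 fell. In all genes tested 4.11% rose and 4.56% fell. Of the 47 genes 34 lay above 0 and 13 below, with a median of 0.11 against -0.07 for all genes. Without the second untreated array 3 genes rose. At an unadjusted p under 0.05 there were 10 higher and 0 lower, against 785 higher and 1111 lower of all 7178 genes. In 16 genes all 3 sarin arrays lay above all 3 untreated arrays (34%, against 17.2% of all genes), and in 2, MRPL35 and MRPS18B, all lay below (4.26%, against 23.2%).

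Of the large-subunit genes that rose, MRPL9 encodes a counterpart of a protein that reaches out from the base of the bacterial ribosome's stalk. Its signal was 2977.5, 2856 and 2716 in untreated and 4681, 4828 and 4772 in sarin-exposed cells. The sarin arrays lay well above the untreated ones with little spread, and the rise was 0.74 ± 0.14 (adjusted p 0.00301, limma). The sarin arrays at 24 h were also above all arrays of every other group, whose highest value was 3112. A second probe set of MRPL9 read 1203, 796.0 and 1079 in untreated and 1441, 1443 and 1256 in sarin-exposed cells. Its groups did not overlap either, and its difference was 0.44 ± 0.19 (adjusted p 0.215 in a limma fit over all probe sets).

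MRPL57 encodes a small protein of the large subunit with no bacterial counterpart. The probe set used read 3512, 2671 and 2645.5 in untreated and 5031, 4989 and 4749 in sarin-exposed cells at 24 h. All sarin arrays were higher, and the rise was 0.75 ± 0.15 (adjusted p 0.00475, limma). The gene has 2 further probe sets, which did not follow. One read 839.5, 887.6 and 950.2 untreated against 876.0, 888.7 and 897.7 with sarin, and its groups overlapped. The other read 485.9, 520.0 and 385.4 untreated against 348.9, 365.7 and 301.0 with sarin, lower on every array, with a difference of -0.43 ± 0.32 and an adjusted p of 0.487 over all probe sets in limma. The mean of the 3 probe sets was not past the threshold.

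MRPL20 encodes a counterpart of a bacterial protein that is needed early in large-subunit assembly. Its signal at 24 h was 2232, 2203 and 2076 in untreated and 3395, 3598 and 3560.5 in sarin-exposed cells. The groups stood clearly apart and the rise was 0.69 ± 0.16 (adjusted p 0.0141, limma). Its second probe set was not above background on any array of any group and gives no check. Without the second untreated or the second sarin array MRPL20 was no longer past the threshold.

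MRPL3 encodes a core protein of the large subunit near the catalytic centre. It read 4244, 5495 and 6562 in untreated and 8981, 8189 and 7278 in sarin-exposed cells. The untreated arrays were widely spread, the groups did not overlap, and the rise was 0.60 ± 0.16 (adjusted p 0.025, limma). MRPL3 was no longer past the threshold without any 1 of 4 arrays, untreated 1 or 2 or sarin 1 or 2.

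MRPL15 encodes a counterpart of a core bacterial large-subunit protein. It read 2253, 1931 and 2510 in untreated and 3294, 3212 and 3426 in sarin-exposed cells at 24 h. The groups did not overlap, and the rise was 0.57 ± 0.13 (adjusted p 0.0129, limma). The sarin arrays overlapped the untreated arrays of 3 h, which read 3398, 2754 and 2996. Without the second untreated array MRPL15 was no longer past the threshold.

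The only small-subunit gene that rose was MRPS31. It read 1175, 1368 and 1387 in untreated and 2917, 2505 and 2356 in sarin-exposed cells at 24 h, groups that did not overlap. The rise was 0.97 ± 0.21 (adjusted p 0.00874, limma), the largest of the 47 genes. Its second probe set read 1031, 814.8 and 1123 untreated against 775.2, 1242 and 819.6 with sarin, which overlap, with a difference of -0.08 ± 0.24. Without the first sarin array MRPS31 was not past the threshold.

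**Figure D2:**
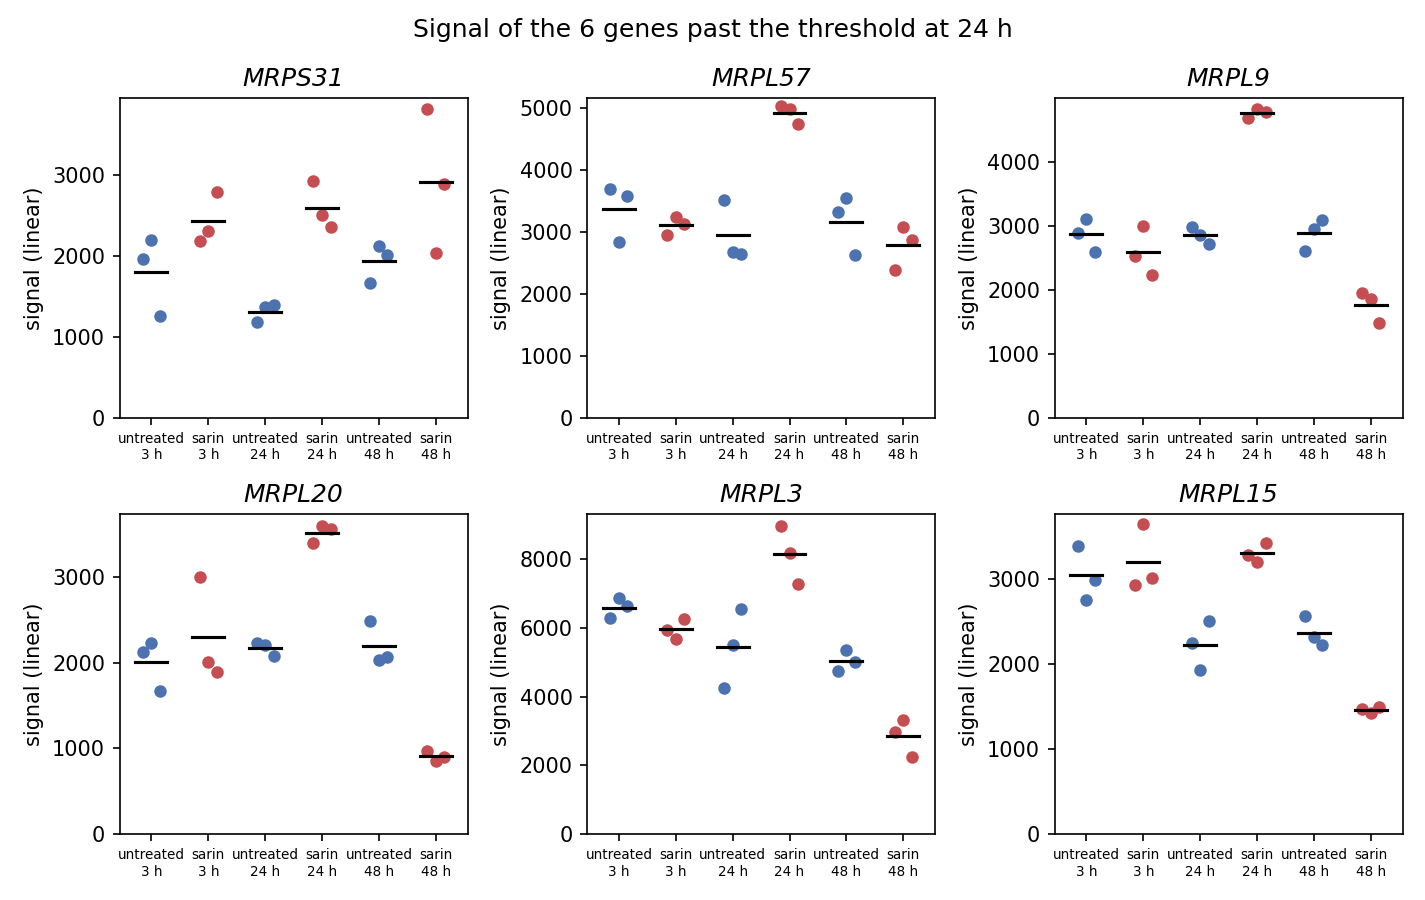
Signal on each array (y axis, linear from 0) by group (x axis) for the 6 genes past the threshold at 24 h. Points are arrays, blue untreated and red sarin, and black lines are group means of 3 arrays; in each panel the 3 red points at 24 h lie above the 3 blue points at 24 h.

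By subunit, 5 of 30 large-subunit genes rose at 24 h, with a median of 0.13, and 1 of 17 small-subunit genes, with a median of 0.05. By origin, 4 of 31 genes with a bacterial counterpart and 2 of 16 without one rose. The differences between these classes were not tested. No member fell at 24 h in limma. Of those below 0 with the smallest p, MRPL12 read 3562, 2786 and 3583 untreated against 2492, 2829 and 2353.5 with sarin, a difference of -0.37 ± 0.23 with overlapping groups (adjusted p 0.328, limma). MRPL42, a protein without a bacterial counterpart, read 2355, 2628 and 1977 against 1843, 1955 and 2087, and its groups overlapped.

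The MRPS18 paralogs, which share an ancestor with 1 bacterial small-subunit protein, gave different readings. MRPS18B read 912.4, 1150.1 and 1033.5 untreated against 908.8, 814.6 and 801.7 with sarin at 24 h, lower on every array, at -0.29 ± 0.23 (adjusted p 0.459, limma). Its second probe set went the other way, from 616.5, 616.7 and 1125 to 1356, 1176.5 and 1338, at 0.76 ± 0.38. MRPS18A stood at 0.02 ± 0.17 with overlapping groups. MRPS18C was below the signal filter, and at 24 h it differed by 0.19 ± 0.65.

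Genes just short of the threshold at 24 h were MRPL16 at 0.45 ± 0.15 (adjusted p 0.0703, limma), MRPL18 at 0.53 ± 0.20 (adjusted p 0.0929, limma) and MRPS27 at 0.49 ± 0.18 (adjusted p 0.0978, limma). In each of them the sarin arrays lay above the untreated ones. MRPS15 had the second largest difference of all 47 genes, 0.81 ± 0.39, but a wide error and an adjusted p of 0.192 in limma.

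The untreated arrays at 24 h had lower medians of these genes than those of 48 h (0.01 to 0.06), and the 24 h sarin arrays were also set against the untreated arrays of 3 and 48 h. Against those, 4 genes were higher, MRPL9, MRPL20, MRPL57 and MRPL3, against 6.42% of all genes, and 1 was lower, MRPL42, against 6.03%. MRPL9 differed by 0.73 ± 0.12 and MRPL20 by 0.75 ± 0.14 there, much as against their own controls. MRPS31 fell short at 0.49 ± 0.18 (adjusted p 0.0895, limma) and MRPL15 at 0.30 ± 0.12 (adjusted p 0.0922, limma). The median of the 47 genes was 0.03 in that comparison, close to the 0.01 of all genes. In 9 of the 47 genes (19.1%) all 3 sarin arrays lay above all 9 untreated arrays, against 6.74% of all genes. In 1 gene, MRPS18B, they lay below all 9 (2.13%, against 5.57%).

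The 24 h sarin arrays had a GAPDH 3′ to 5′ ratio of 1.05 to 1.17 against 0.811 to 0.941 in their controls, and a median signal over all probe sets of 314.9 to 345.3 against 397 to 413.9. The summed signal of the 6 substrate-adherent markers was 33010 to 33690 against 49990 to 52280, and that of the 11 noradrenergic markers 113300 to 115000 against 99980 to 111700. The part of these differences in the result was not tested. Genes with higher signal were also more often higher at 24 h. The tested genes were put in 5 classes of equal size by mean log2 signal over all 18 arrays. In the brightest 9.54% of all genes rose and in the dimmest 0.975%, and 4 of the 6 genes lie in the brightest. With the arrays centred on their medians the all-gene median moved from -0.07 to 0.22 and 11 genes of the family rose, and with scaling to the spiked-in control transcripts 0 did.

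In the comparison of the 24 h with the 3 h sarin effect, MRPL9 was the only member past the threshold, against 0.39% of all genes higher and 0.446% lower. At 3 h it had read 2889, 3112 and 2589.5 untreated against 2519, 3002 and 2227 with sarin, which overlap. The sarin effect was higher at 24 h by 0.89 ± 0.20 (adjusted p 0.0347, limma). It lost the threshold under 13 of 25 alternatives, 9 of which left out 1 array. MRPL57 came next at 0.86 ± 0.21 (adjusted p 0.07, limma). On the lower side the smallest p were those of MRPL35 at -0.82 ± 0.59, MRPS7 at -0.24 ± 0.21 and MRPS18B at -0.35 ± 0.32, with adjusted p-values in limma of 0.605 to 0.703.

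Untreated cells showed how far these genes move with time in culture. From 3 to 24 h 0 of the 47 genes passed the threshold in limma, against 3.57% of all genes higher and 2.12% lower. At an unadjusted p under 0.05, 5 were lower and 0 higher, against 574 lower and 1099 higher of all 7178 genes. MRPL15 came closest, from 3398, 2754 and 2996 at 3 h to 2253, 1931 and 2510 at 24 h, groups that did not overlap, at -0.45 ± 0.13 (adjusted p 0.051, limma). MRPL4, which lines the exit tunnel of the large subunit, read 1310, 951.9 and 1576 at 3 h and 587.2, 712.6 and 812.0 at 24 h, at -0.83 ± 0.26 (adjusted p 0.0666, limma). Both were thus lower at 24 h on every array without passing the threshold, as was MRPL42 at -0.47 ± 0.18. On the higher side the smallest p was that of MRPS11, at 0.27 ± 0.21 with overlapping arrays (adjusted p 0.463, limma). The scale matters here: with the arrays centred on their medians 15 members were lower at 24 h than at 3 h, where the all-gene median moved from 0.09 to -0.24. Scaling to the spiked-in transcripts gave 32 lower, with an all-gene median of -0.70.

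From 3 to 48 h in untreated cells 0 genes passed in limma, against 0.279% of all genes higher and 0.209% lower. At an unadjusted p under 0.05, 5 were lower and 0 higher, against 372 lower and 533 higher of all 7178 genes. MRPL3 read 6287, 6872 and 6639 at 3 h and 4745, 5356 and 5015 at 48 h, lower on every array, at -0.39 ± 0.16 (adjusted p 0.302, limma). MRPL15 stood at -0.36 ± 0.13 without overlap and MRPL4 at -0.78 ± 0.26 with overlap, and on the higher side MRPL44 had the smallest p, at 0.61 ± 0.36 with overlapping arrays. Scaling to the spiked-in transcripts gave 31 lower, with an all-gene median of -0.77. From 24 to 48 h 0 passed, against 0.167% higher and 0.265% lower. An unadjusted p under 0.05 was held by 767 of all 7178 genes and by 2 of the 47. One of these was MRPS31, whose untreated arrays went from 1175, 1368 and 1387 to 1662, 2118 and 2010 without overlap, at 0.55 ± 0.21 (adjusted p 0.336, limma). The other was MRPL33, at -0.57 ± 0.22 (adjusted p 0.336, limma).

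At 48 h, 38 of the 47 genes (80.9%) fell and 4 rose, against 37.8% of all genes that fell and 32.9% that rose. The median change was -1.24, against -0.08 for all genes. Of the falls 27 were of 2-fold or more, against 1785 such falls among all 7178 genes. Since 7 of the genes were not above background on any 48 h sarin array, their falls are given as lower bounds, from the untreated mean and the background level of the sarin arrays. With those genes at their bound the median was -1.07 and 26 falls were of 2-fold or more. Of all tested genes 6.52% were not above background there. Another 7 genes, MRPL17, MRPL35, MRPL40, MRPL48, MRPS12, MRPS16 and MRPS2, were above it on 1 of the 3 sarin arrays (6.05% of all genes), and all 7 were called lower. MRPL22, MRPL34, MRPL44 and MRPS33 were above it on 2 (10.5%). The fitted changes of these 11 rest in part on signal under background and give no exact size. Of the 29 genes above background on all 3 sarin arrays, 21 fell. Of all tested genes 5524 (77%) were above it on all 3. How many of those fell was not counted, so the 21 cannot be set against a share of all genes.

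In the small subunit, MRPS28, which occupies the place of a bacterial protein that guides messenger RNA, read 1596, 1726 and 1459 in untreated and 19.7, 40.5 and 59.1 in sarin-exposed cells at 48 h. All sarin arrays lay below background, so the fall is at least 3.67-fold (adjusted p 9.1e-12, limma). MRPS15, another counterpart of a bacterial protein, read 1066, 741.3 and 847.4 untreated against 27.5, 209.6 and 56.4, at least 2.03-fold lower (adjusted p 4.78e-07, limma). MRPS34, which has no bacterial counterpart, read 1051, 1109 and 1042 untreated against 74.8, 108.4 and 169.8, at least 2.47-fold lower (adjusted p 1.4e-09, limma). In each of the 3 the sarin arrays stood far below the controls.

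MRPS12, a protein of the decoding centre, read 2061, 1910 and 1832 untreated and 26.6, 535.3 and 205.4 with sarin. The sarin arrays were all lower but spread widely, 2 of them under background, and the fitted log2 change was -3.49 ± 0.52 (adjusted p 8.27e-06, limma). Its 3 dimmer probe sets were above background on at most 1 sarin array and give no check. The mean of the 4 probe sets, which includes them, gave -0.85 (adjusted p 0.0151, limma). MRPS33, without a bacterial counterpart, read 3633, 3965 and 3661 untreated against 1251, 1507 and 158.9, with 1 sarin array far under the other 2 and below background, at -2.44 ± 0.48 (adjusted p 0.000181, limma). MRPS11, which lies at the small subunit's platform, read 991.9, 936.6 and 893.2 against 181.5, 211.8 and 178.4, at least 2.18-fold lower (adjusted p 2.96e-08, limma). Its second probe set was above background on 0 of the 3 sarin arrays and gives no check; the mean of both, which includes it, was not past the threshold.

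In the large subunit, MRPL42, which has no bacterial counterpart, read 2344, 2797 and 2520.4 untreated and 213.0, 121.3 and 203.2 with sarin, all below background, at least 5.85-fold lower (adjusted p 3.48e-12, limma). MRPL13, a counterpart of a bacterial protein, read 994.4, 1364 and 1272 untreated against 53.4, 392.5 and 95.9, at least 2.78-fold lower (adjusted p 2.28e-06, limma). MRPL4 read 1019, 786.9 and 472.9 against 187.4, 140.0 and 152.9, at least 1.69-fold lower (adjusted p 1.15e-06, limma). The sarin arrays of all 3 genes lay below every control, with a narrower gap for MRPL4, which had 1 low control.

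MRPL40, without a bacterial counterpart, read 1139, 1461 and 1134 untreated against 170.0, 524.5 and 84.3, a log2 change of -2.53 ± 0.37 (adjusted p 7.55e-06, limma). MRPL35, with one, read 1029, 970.5 and 909.0 against 161.6, 66.4 and 486.0, a log2 change of -2.34 ± 0.42 (adjusted p 6.57e-05, limma). In both genes 1 sarin array was above background, well over the other 2, and still below every control. MRPL17, which sits by the tunnel exit, read 1871, 1831 and 1702 against 383.6, 278.3 and 470.8, a log2 change of -2.24 ± 0.17 (adjusted p 1.47e-09, limma). MRPL48, without a bacterial counterpart, read 1730, 1443 and 1407 against 512.9, 269.0 and 277.2, a log2 change of -2.12 ± 0.21 (adjusted p 4.38e-08, limma). The groups of these 2 genes did not overlap, and in both 1 of the 3 sarin arrays was above background.

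The remaining falls ran from -1.62 ± 0.30 for MRPL34 to -0.43 ± 0.17 for MRPS18A, and in MRPL28 and MRPS2 the arrays of the groups overlapped. MRPL58, a peptidyl-tRNA hydrolase built into the large subunit, fell by 1.28 ± 0.19. MRPL12 of the stalk fell by 1.39 ± 0.23. In each of these genes the adjusted p in limma was at most that of MRPS18A, 0.0287.

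**Figure D3:**
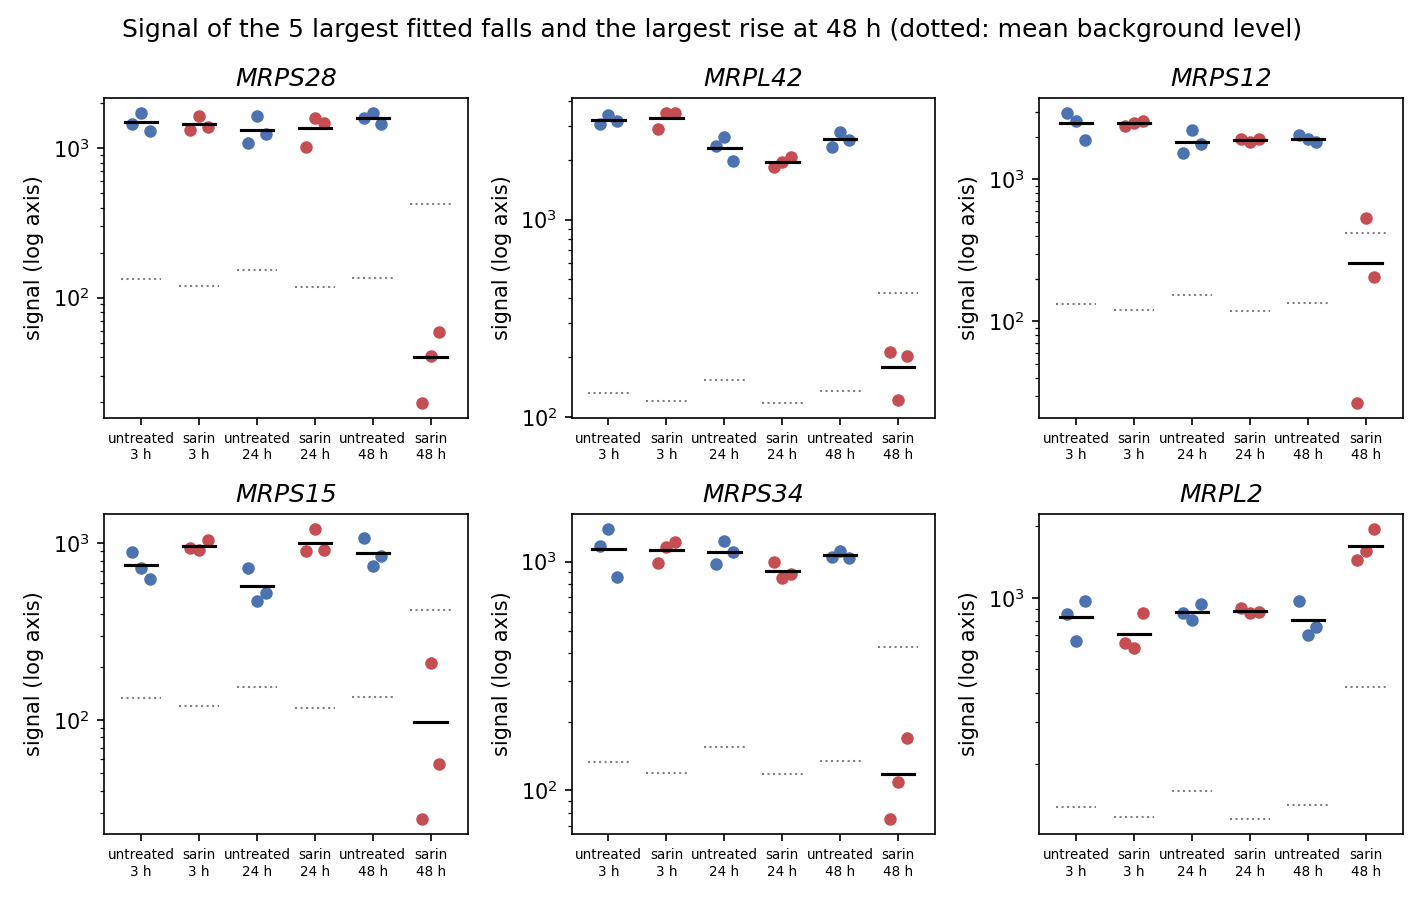
Signal on each array (y axis, log scale) by group (x axis) for the 5 genes with the lowest fitted change at 48 h, whose order under background has no meaning, and for MRPL2, which rose most. Points are arrays, blue untreated and red sarin, black lines group means of 3 arrays and dotted lines the group's mean background level; the 48 h sarin points of MRPS28, MRPL42, MRPS15 and MRPS34 lie under the dotted line.

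Of the 4 genes that rose at 48 h, MRPL2, a core protein beside the catalytic centre, read 969.2, 695.1 and 755.3 untreated and 1448, 1574 and 1949 with sarin. The groups did not overlap, and the rise was 1.03 ± 0.20 (adjusted p 0.000122, limma). It was 0.46 with the arrays centred on their medians and turned to -1.0 when the arrays were scaled to the spiked-in transcripts. The other 3 encode small-subunit proteins. MRPS31 read 1662, 2118 and 2010 untreated against 3815, 2031 and 2887.5, with overlapping arrays, at 0.55 ± 0.21 (adjusted p 0.027, limma). MRPS10 read 1034, 971.9 and 1109 against 1537, 1292 and 1194 at 0.36 ± 0.15 (adjusted p 0.0397, limma). MRPS22, without a bacterial counterpart, read 2029, 2273 and 2309 against 2703, 2414 and 3080 at 0.30 ± 0.12 (adjusted p 0.0358, limma). The arrays of MRPS10 and MRPS22 did not overlap, but all 3 small-subunit rises turned to -0.01, -0.20 and -0.26 with median centring. Each of the 3 also lost the threshold without 1 or more single arrays, among them the first untreated and the first sarin array.

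The other 5 genes were not past the threshold at 48 h: MRPS18B at -0.48 ± 0.23, MRPL44 at -0.57 ± 0.36, MRPL39 at -0.25 ± 0.19, MRPL57 at -0.18 ± 0.15 and MRPL33 at 0.37 ± 0.22. The arrays of all 5 overlapped. The second probe set of MRPS18B was lower on every sarin array than on any control (adjusted p 9.69e-05 over all probe sets, limma), with 1 sarin array above background.

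By subunit, 25 of 30 large-subunit genes fell and 1 rose, with a median of -1.19, and 13 of 17 small-subunit genes fell and 3 rose, with a median of -1.41. With the genes not above background at their bound the medians were -1.10 and -1.02. By origin, 27 of 31 genes with a bacterial counterpart fell and 2 rose, and 11 of 16 without one fell and 2 rose. Among neighbours on opposite strands, MRPS11 and MRPL46 both fell, by at least 2.18-fold and by 0.72 ± 0.22 on the log2 scale. MRPL49 and FAU also both fell, at -1.14 ± 0.20 and -2.14 ± 0.15. MRPS12 and SARS2, which encodes the mitochondrial seryl-tRNA synthetase, read in opposite directions, at -3.49 ± 0.52 and 1.20 ± 0.26. The remaining neighbours on opposite strands were not among the genes tested.

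Of the 6 genes that rose at 24 h, 4 fell at 48 h, 1 (MRPS31) rose, and MRPL57 was not past the threshold. Of all genes 37.8% fell and 32.9% rose at 48 h. In the brightest level class, which holds 4 of these 6, 73.6% fell and 9.05% rose. MRPL9 went to 1951, 1856 and 1474 with sarin against 2598, 2955 and 3081 untreated, at -0.71 ± 0.14 (adjusted p 0.000158, limma). MRPL20 went to 962.6, 851.3 and 900.3 against 2490.5, 2028.5 and 2068, at -1.26 ± 0.16 (adjusted p 1.49e-06, limma). MRPL3 fell by 0.84 ± 0.16 and MRPL15 by 0.69 ± 0.13. In all 4 of them the 48 h sarin arrays lay below every control of that time. The 24 and 48 h effects themselves differed in 38 genes: 37 were lower at 48 h, against 33.2% of all genes, and MRPL2 was higher by 1.01 ± 0.28, against 30.5%.

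**Figure D4:**
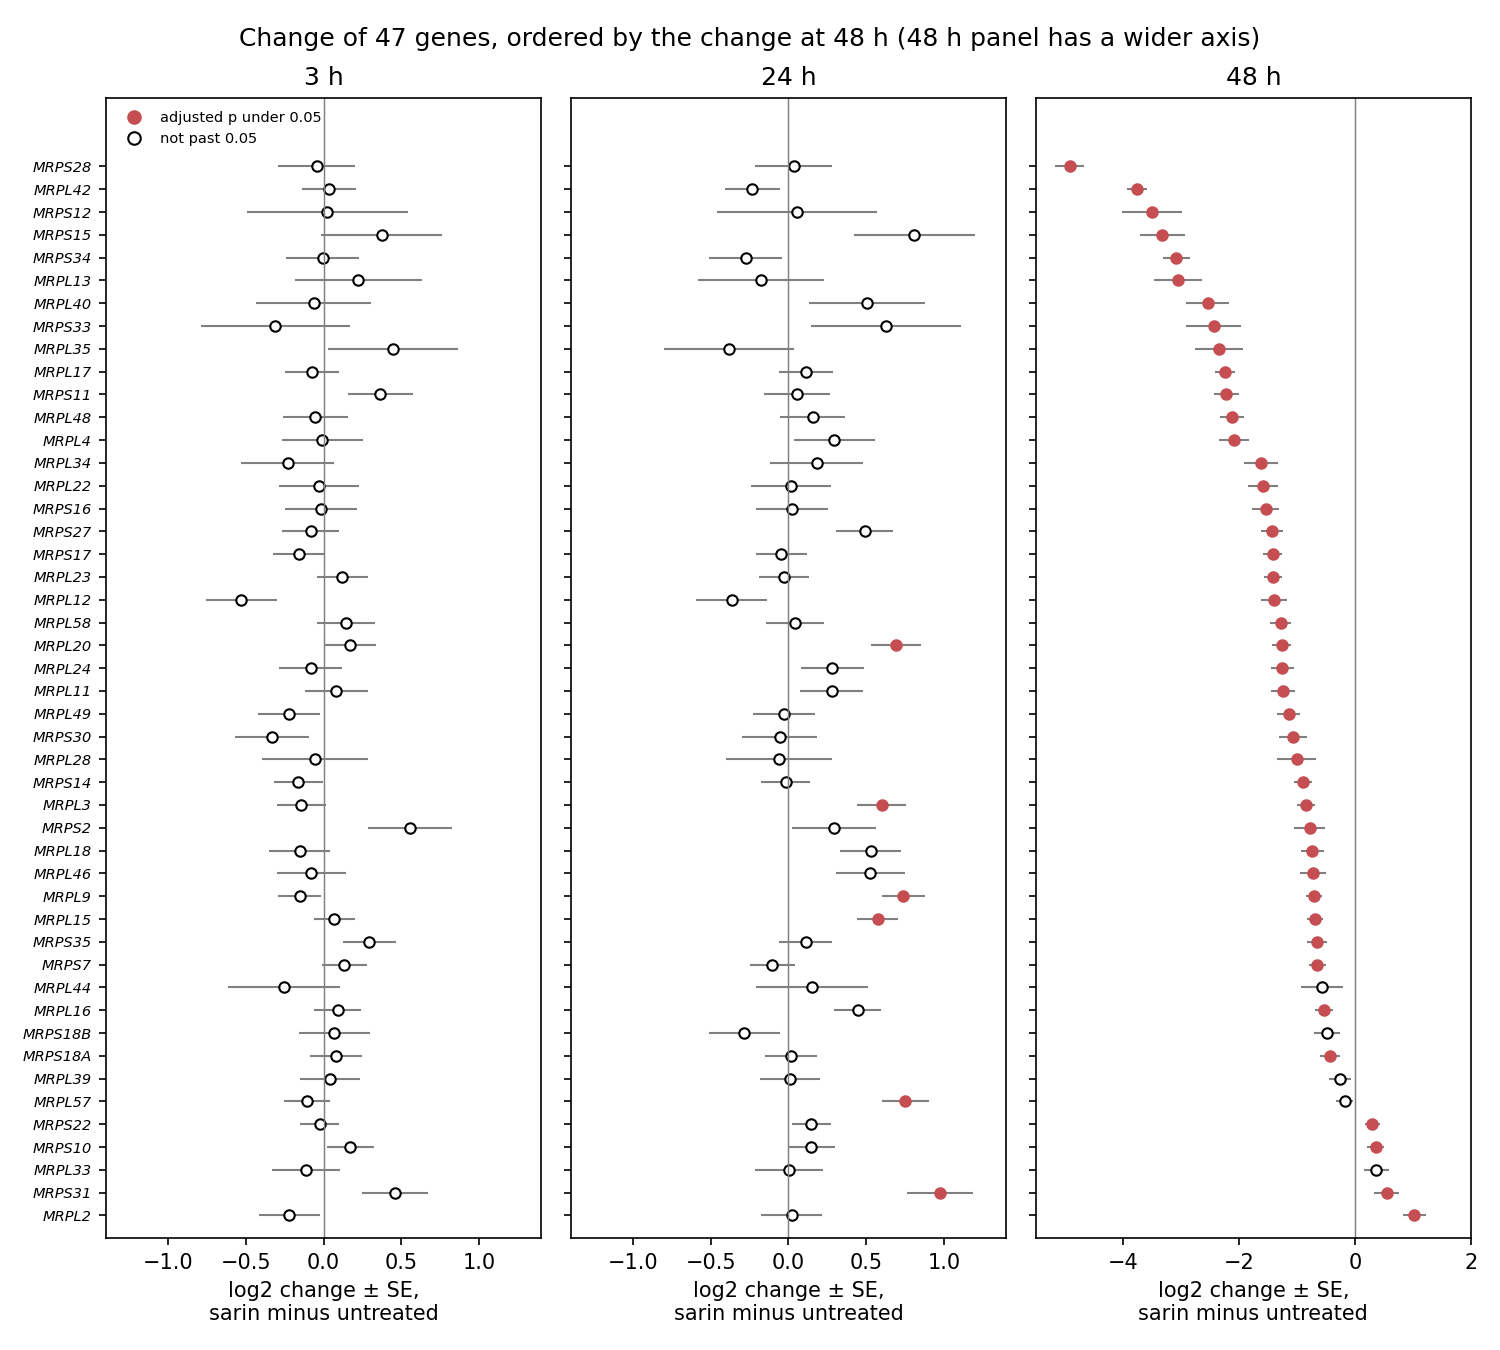
Change of each of the 47 tested genes (rows, ordered by the 48 h change) as log2 difference ± SE, sarin minus untreated, at 3, 24 and 48 h (panels; the 48 h panel has a wider x axis). Filled red points are past an adjusted p of 0.05: 0 at 3 h, 6 at 24 h and 42 at 48 h, of which 38 lie left of 0.

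The 48 h comparison rests on the 3 sarin arrays that stood apart, and it has no value without them. On these arrays the change followed signal level in all genes: in the brightest of the 5 level classes the median was -0.97 and 73.6% fell, in the dimmest the median was 0.9 and 12.9% fell. The 47 genes lie in the upper 4 classes, with 7, 9, 16 and 15 members, of which 6, 6, 14 and 12 fell, against 24.4%, 31.1%, 46.8% and 73.6% of all genes in those classes. Their medians there were, from the dimmer to the brighter class, -2.34, -0.78, -1.27 and -0.84, against 0.39, 0.09, -0.36 and -0.97. The first of these was -1.13 with its 5 genes under background at their bound. The classes were cut on the mean log2 signal over all 18 arrays, the 48 h sarin arrays included. A gene's class therefore depends in part on its own 48 h change. The part of this in the contrasts by class was not tested. The summed signal of the 11 noradrenergic markers was 50210 to 60400 against at least 95620 in the controls, that of the 6 substrate-adherent markers 15070 to 16840 against 51580 to 69760. For the 3 measured glial markers it was 932.1 to 1498 against 410.6 to 660, and for the 3 measured blood markers 3368 to 3684 against 1301 to 1403. Of these, 1 glial and 2 blood markers were above background on all 9 untreated arrays. The background level was 410.7 to 443.2 on the sarin arrays and 103.1 to 161.1 on their controls, and its part in these sums was not tested. The part of array quality and cell state in the fall was not tested, and fewer cells of a kind cannot be told apart from less RNA per cell. Centring on the median moved the all-gene median from -0.08 to -0.64 and gave 42 falls in the family; scaling to the spiked-in transcripts moved it to -2.08 and gave 47.

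Probe sets of 1 gene could disagree at 48 h. In 2 of the 10 genes with several probe sets, MRPL57 and MRPS30, a dimmer probe set above background on all arrays of that time lay on the other side of 0 from the one used. In MRPL57 the probe set used stood at -0.18 ± 0.15, and the others rose by 0.86 ± 0.29 and 0.81 ± 0.32. The dimmer probe sets of MRPL20, MRPS11, MRPS12 and MRPS14 were above background on at most 1 sarin array and give no check. MRPS30, a large-subunit protein despite its name, fell by 1.07 ± 0.24 on the probe set used, from 1150.1, 1584 and 1734 to 715.5, 797.1 and 580.9. On the other it rose by 0.96 ± 0.26, from 531.1, 324.9 and 378.8 to 966.7, 737.2 and 718.4, with no overlap on either. Here, and in the dimmest probe set of MRPL57, some control readings lay under the background level of the sarin arrays, 410.7 to 443.2. The part of that level in these rises was not tested. In MRPL9, MRPS18A and MRPS18B both probe sets lay below 0, and the second probe set of MRPL9 read 1149, 1004 and 1370 against 196.9, 183.9 and 207.2, at least 2.70-fold lower and below background with sarin. At 24 h the genes with probe sets on both sides of 0 were MRPL57, MRPS12, MRPS18B, MRPS30 and MRPS31.

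**Figure D5:**
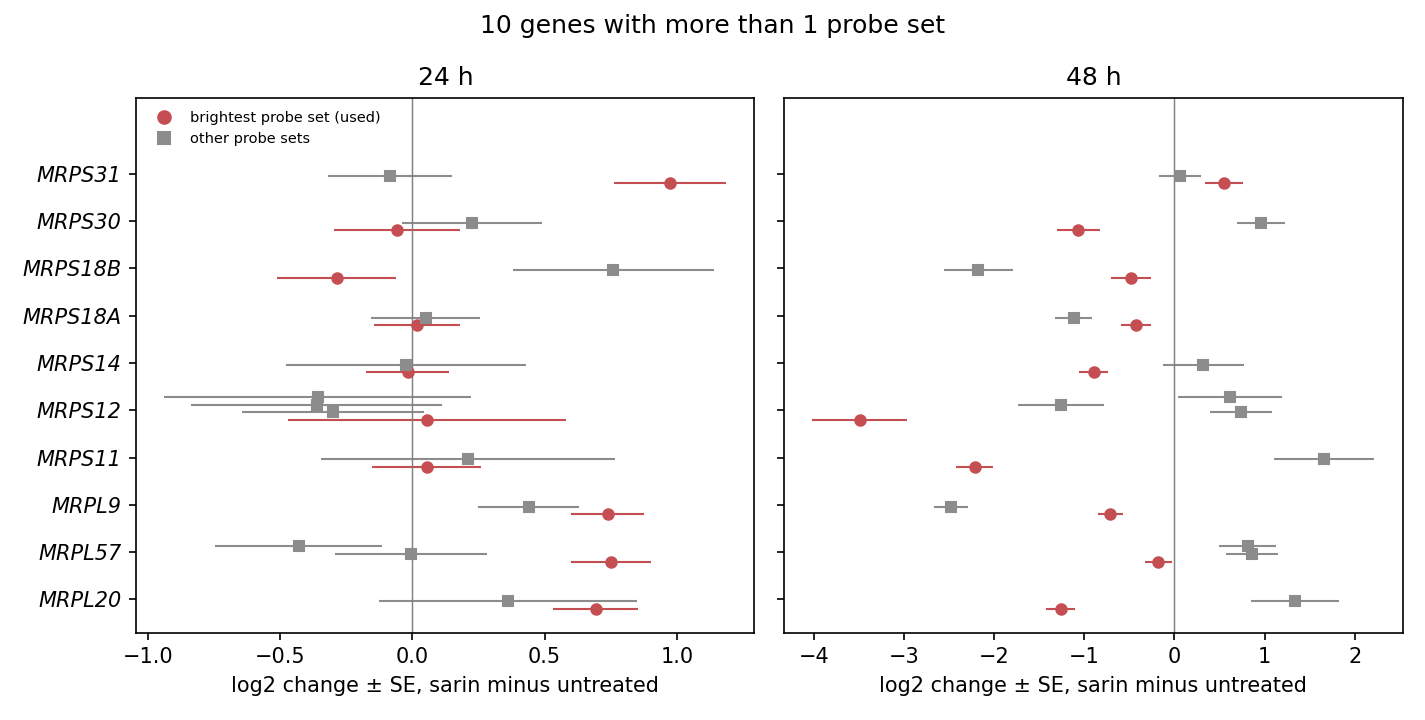
Log2 difference ± SE, sarin minus untreated (x axis), at 24 and 48 h (panels), for each probe set of the 10 genes that have more than 1 (y axis). Red circles are the brightest probe set, used in the tests, and grey squares the others; MRPL57 and MRPS31 show a red point right of 0 at 24 h and grey points at or left of it.

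The 4 genes below the filter were fitted with all probe sets. MRPL41 was not above background in either group at 48 h. MRPS18C was above it on 0 control arrays and 1 sarin array, and MRPL19 on 0 sarin arrays, whose background level exceeded all its control readings, so neither gives a change. MRPL52 read 290.2, 272.8 and 254.6 untreated at 48 h against 1050.0, 880.8 and 514.6, higher on every array by 1.47 ± 0.30 (adjusted p 0.00037 over all probe sets, limma). Its control readings all lay under the background level of the sarin arrays, 410.7 to 443.2. The part of that level in the rise was not tested. At 24 h none of the 4 was past the threshold in limma.

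The other genes of mitochondrial translation were taken from lists chosen with earlier results of these data known. Their counts stand against 4.11% of all genes higher and 4.56% lower at 24 h, and 32.9% higher and 37.8% lower at 48 h. Of mitochondrial ribosomal proteins with other names 3 were tested, and 0 passed at 24 h in limma, where 0 also had an unadjusted p under 0.05. DAP3, a small-subunit protein that binds GTP, stood at 0.46 ± 0.27 then (adjusted p 0.3, limma), and at 48 h it fell by 2.37 ± 0.27. GADD45GIP1 fell at least 1.36-fold at 48 h, and PTCD3 stood at 0.07 ± 0.19.

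Of 19 genes for assembly of the mitochondrial ribosome and handling of its RNA, 2 rose (10.5%) and 0 fell at 24 h, and the median was 0.21. SLIRP, the partner of LRPPRC in stabilising mitochondrial messenger RNA, went from a mean of 6533 to 10190 (0.67 ± 0.17, adjusted p 0.0199, limma). MRM2, a methyltransferase of mitochondrial ribosomal RNA, went from 1974 to 3431 (0.82 ± 0.21, adjusted p 0.0223, limma). At 48 h 9 of the 19 fell (47.4%) and 5 rose (26.3%), not far from the shares of all genes, among them SLIRP at -2.15 ± 0.17, the matrix protein C1QBP at -2.86 ± 0.40 and the transcription-termination family member MTERF3 at 1.21 ± 0.24.

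Of 6 translation factors tested 0 passed at 24 h in limma, and the smallest p was that of the initiation factor MTIF2, at 0.48 ± 0.19 (adjusted p 0.107, limma). At 48 h 3 fell and 1 rose: the elongation factor TUFM went from a mean of 7312 to 811.2 (-3.38 ± 0.29), and OXA1L, which inserts new proteins into the inner membrane, fell at least 4.37-fold. MTIF2 rose by 0.63 ± 0.19. A further 12 genes serve the charging of mitochondrial transfer RNA, synthetases and the amidotransferase genes QRSL1 and GATC. Of these 12, 1 rose at 24 h, KARS1 at 0.42 ± 0.13 (adjusted p 0.0434, limma), whose gene also makes the cytosolic enzyme. At 48 h 4 fell (33.3%) and 3 rose (25%), shares near those of all genes, with SARS2 at 1.20 ± 0.26.

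Of 9 genes for mitochondrial DNA and its transcription, 1 rose at 24 h, the helicase TWNK at 0.83 ± 0.22 (adjusted p 0.0244, limma), and 5 fell at 48 h. Of 8 regulators of mitochondrial biogenesis 1 rose at 24 h, MYC, from a mean of 566.6 to 1460 (1.36 ± 0.23, adjusted p 0.00141, limma). Untreated cells had a mean of 1543 for MYC at 3 h and 1091 at 48 h, so the 24 h sarin mean lay between those. Set against the untreated arrays of 3 and 48 h, 0 of the 8 regulators passed the threshold in limma. At 48 h 4 of these fell and 2 rose, and MYC was at least 2.52-fold lower. The gene of the YY1 factor itself stood at 0.34 ± 0.15 at 24 h (adjusted p 0.167, limma) and NRF1 at -0.27 ± 0.24 (adjusted p 0.511, limma). GABPB1, a gene of GABP, stood at -0.73 ± 0.29 at 24 h (adjusted p 0.122, limma), with all sarin arrays below the untreated ones. Of 18 import genes 1 rose at 24 h, TIMM8B at 0.48 ± 0.12 (adjusted p 0.0161, limma), and 2 fell, TIMM10 at -0.80 ± 0.20 (adjusted p 0.0197, limma) and TIMM9 at -0.55 ± 0.15 (adjusted p 0.0287, limma). All 3 are small chaperones between the mitochondrial membranes. At 48 h 11 of the 18 fell and 4 rose.

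Set beside 2 comparable families, 53 cytosolic ribosomal protein genes had 1 rise (1.89%, under the 4.11% of all genes) and 0 falls at 24 h with a median of 0.12, and 36 falls (67.9%) and 2 rises at 48 h with a median of -0.83. The 64 oxidative phosphorylation subunit genes had 6 rises (9.38%) and 0 falls at 24 h with a median of 0.11, and 60 falls (93.8%) and 1 rise at 48 h with a median of -1.63, or -1.51 with genes under background at their bound. These comparisons share their arrays, and the differences between families were not tested.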

How the data were processed

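RNA of SH-SY5Y cells was measured on 18 arrays, 3 in each of 6 groups. The deposited values are linear intensity (signal) per probe set; the authors used MAS5, per the submitters' processing notes, with no version; its scaling target is not given in the sources used here. From these, log2(signal + 16) was computed, 1 probe set was kept per gene (the highest mean), and the genes in the upper 60% of mean level (log2 of at least 8.494, a signal of about 344.7) were kept, 7178 in all. All 6 groups were fitted together in limma 3.58.1 (R 4.3.3) with a variance trend, 12 residual and 7.344 prior degrees of freedom, two-sided tests and Benjamini-Hochberg adjustment over all genes tested; the threshold is an adjusted p under 0.05. The fit was tested on simulated data.

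The background level of an array is the 90th percentile of 27 probe sets for bacterial transcripts that are not spiked in. A gene not above it on any array of a group is given as "at least N-fold", the brighter group's mean log2 value against, per array, the higher of the background level and the gene's own signal. Genes below the signal filter and second probe sets come from a limma fit over all probe sets. For each sarin comparison the members past the threshold were named, up to 12 in each direction by size of change, or, where none passed, the 3 with the smallest p; for the other comparisons up to 4. Members with the highest and lowest mean signal, also in the rule, are not listed, since levels of different probe sets are not comparable. Probe sets of opposite sign at 24 h, the MRPS18 paralogs and the list genes past the threshold at 24 h were named too; list genes at 48 h and other members were named after their values were seen. The members and lists were chosen with earlier results of these data known.

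Replicate numbers did not pair the arrays: deviations of same-numbered arrays from their group means correlated at -0.181 to 0.0249. Alternatives covered pseudocounts, level filters, scaling, the choice of probe set, the variance model, array weights, other controls and leaving out each array. The number of arrays limits the precision. 1 member probe set shared with another gene was left out.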

Additional observations from a re-analysis of the deposited data

Results flagged for a closer look

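The sarin effects at different times were compared by an interaction term in limma, and these results passed it. Between 3 and 24 h, 1 of the mitochondrial ribosomal protein genes had a higher effect at the later time, MRPL9, by 0.893 (log2), against 0.39% of all genes. Between 24 and 48 h, 37 of the genes had a lower effect at 48 h and 1 a higher one, against 33.2% and 30.5% of all genes. The higher one was MRPL2, at 1.006. Among the lower ones were MRPS28 at -4.948, MRPS15 at -4.129, MRPS12 at -3.546 and MRPL42 at -3.519. The differences for MRPS28, MRPS15 and MRPL42 are fitted values whose 48 h level lay below background, as did 2 of the 3 sarin arrays of MRPS12, so their order has no meaning. Those between 24 and 48 h all rest on the 3 sarin arrays of 48 h that stood apart.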

How the results depend on the processing

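The 48 h fall held under all 19 alternatives tried, with 35 to 47 genes lower, and the replicate block gave 6 genes higher at 24 h and 4 higher and 38 lower at 48 h and changed no call count of the family. Of the results for single genes under the alternatives, 1065 kept their direction and side of the threshold, 58 lost it, 23 gained it and 24 reversed. The 3 h comparison had 0 calls throughout, also at every scaling. Except for the other controls at 24 h, the share of all genes called under an alternative is not given, here or above. The counts of the family under those alternatives cannot be set against it.

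With the arrays centred on their medians the member median was 0.03 at 3 h, 0.40 at 24 h with 11 genes higher, and -1.80 at 48 h with 1 higher. The 24 minus 3 h effect then had 3 higher, the 48 minus 24 h effect 0 higher, and untreated cells 15 lower from 3 to 24 h. Reversed there were MRPL42 (0.06) and MRPS18B (0.00) at 24 h, MRPS31 (-0.01), MRPS10 (-0.20) and MRPS22 (-0.26) at 48 h, MRPS11 (-0.06) and MRPL28 (-0.01) in untreated cells from 3 to 24 h, and MRPS10 (0.04) from 24 to 48 h.

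Scaling to the spiked-in transcripts gave 0 higher at 24 h, 0 higher at 48 h with a median of -3.22, 0 higher in the 24 minus 3 h and 0 in the 48 minus 24 h effect, and 32 and 31 lower in untreated cells from 3 to 24 h and from 3 to 48 h. Reversed were MRPL2 (-1.0), MRPS31 (-1.50), MRPS10 (-1.66) and MRPS22 (-1.74) at 48 h and MRPL2 in the 48 minus 24 h effect (-1.06). In untreated cells MRPS11 (-0.52), MRPL13 (-0.40) and MRPL28 (-0.47) reversed from 3 to 24 h, and MRPL44 (-0.20), MRPL46 (-0.49) and MRPS11 (-0.51) from 3 to 48 h.

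The mean of a gene's probe sets gave 3 higher at 24 h, a 48 h median of -1.14, 0 higher in the 24 minus 3 h and 2 in the 48 minus 24 h effect, and 1 lower in untreated cells from 3 to 24 h. Reversed were MRPS11 at 3 h (-0.09), MRPS18B at 24 h (0.24) and in the 24 minus 3 h effect (0.06), and MRPS11 in untreated cells from 3 to 48 h (-0.05). Every probe set as its own feature gave 7 higher and a median of -1.13 at 48 h and 2 higher in the 48 minus 24 h effect. No level filter gave 7 higher, a median of -1.14, and 3 higher in that effect. The upper 40% gave 2 higher in the 24 minus 3 h effect and 1 lower in untreated cells from 3 to 24 h. Quantile normalization gave 3 higher at 24 h, a 48 h median of -1.45, 0 higher in the 24 minus 3 h and 3 in the 48 minus 24 h effect. No variance trend gave 0 higher in the 24 minus 3 h effect.

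Array weights gave 11 higher at 24 h, 1 higher at 48 h, 4 higher in the 24 minus 3 h effect, and in untreated cells 4 lower from 3 to 24 h, 2 lower from 3 to 48 h, and 1 higher and 1 lower from 24 to 48 h. The 6 arrays of a time alone gave 13 higher at 24 h and 1 higher at 48 h. Without the 48 h sarin arrays 11 were higher at 24 h, 3 higher in the 24 minus 3 h effect and 4 lower in untreated cells from 3 to 24 h. Against the untreated arrays of 3 and 48 h the 24 h median was 0.03, with 1 gene lower.

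Leaving out 1 array gave 3 to 6 higher and a median of 0.08 to 0.18 at 24 h, 1 to 4 higher and a median of -1.30 to -1.10 at 48 h, 0 to 2 higher in the 24 minus 3 h effect and 0 to 3 lower in untreated cells from 3 to 24 h. The change of MRPL39 from 24 to 48 h in untreated cells ran from -0.32 to 0.08, reversed without the second untreated array of 24 h. The causes of these shifts were not tested.

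Signal over background limits the 48 h values, since the background level was higher on those sarin arrays, and 3 arrays a group limit the precision of all values. No alternative replaces the 48 h sarin arrays.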
